A study of Mus musculus with 4 samples.

Results

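The 8 genes described here handle glutamate and GABA in astroglia, and were chosen by their symbols in the gene tables of the 4 libraries of this series, which list 31053 genes each. All 8 were found in every library, and all 8 passed the filter on low counts in every comparison. The libraries hold single cells of the dorsal V-SVZ, the germinal layer that lines the lateral ventricle after birth, microdissected from OF1 wild-type mice and captured by 10x Genomics 3′ chemistry, in which RNA molecules are counted by random tags (UMIs). There was 1 library at P2, 2 at P12 from separate experiments (replicates 1 and 2) and 1 at P22. The labels name the mice as male, while the methods state that a female was included at P2. Tissue of 2 mice was pooled per time point, and whether each P12 library holds 1 or 2 mice is not settled. Viable cells were sorted before capture, no transgene or treatment was used, and the classes of cells compared below come from the same libraries.

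Glutamate released by neurons is cleared from the extracellular space mainly by astroglia, through sodium-coupled carriers in their membrane. Inside the cell glutamine synthetase turns glutamate into glutamine, which leaves through system N carriers and is taken up again by neurons through system A carriers. Glutamate can instead enter the mitochondrion and be oxidised. Neural stem cells of the V-SVZ are themselves astroglial cells and carry several of these genes, among them Slc1a3, which is in wide use as a stem cell marker.

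By role, Slc1a2 (GLT-1, ENSMUSG00000005089) and Slc1a3 (GLAST, ENSMUSG00000005360) encode the astroglial glutamate carriers of the plasma membrane, and Slc6a11 (GAT-3, ENSMUSG00000030307) an astroglial GABA carrier. Glul (ENSMUSG00000026473) encodes glutamine synthetase. Slc38a3 (SNAT3, ENSMUSG00000010064) is a system N carrier that releases glutamine, and Slc38a1 (SNAT1, ENSMUSG00000023169) a system A carrier known for glutamine uptake by neurons. Glud1 (ENSMUSG00000021794) encodes mitochondrial glutamate dehydrogenase, and Slc25a18 (ENSMUSG00000004902) a carrier that brings glutamate into mitochondria. In the GENCODE vM21 annotation of GRCm38 all 8 lie apart on the genome. Slc1a2 spans chr2:102658659-102790784 on the plus strand, Slc1a3 chr15:8634124-8710764 on the minus strand and Glul chr1:153899944-153909723 on the plus strand. Slc6a11 spans chr6:114131241-114249952, Glud1 chr14:34310727-34345265 and Slc25a18 chr6:120773578-120794336, each on the plus strand. Slc38a1 spans chr15:96571418-96642913 and Slc38a3 chr9:107650634-107669530, both on the minus strand. On the same strand, the span of Gm37310 (annotated type TEC) overlaps that of Slc1a3, and the span of the microRNA gene Mir8114 overlaps that of Glul. Whether they overlap exons, and so share reads, was not examined.

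Slc1a2, Slc1a3, Glul, Slc38a3 and Glud1 fell in activated and again in amplifying cells (below). For Slc1a3, Glul and Glud1 the 250 bases before their start in RefSeq (GRCm38.p6) are shown. RefSeq promoters were at hand for 6 of the 8 genes. The 3 printed here hold 0 bases of the annotated exons of their gene. Slc38a3 had no such promoter at hand, and the Slc1a2 window, with 29 bases in annotated exons, is not printed. Capitals mark CAGCTG, the E-box form bound by proneural factors.
Slc1a3, chr15:8710808-8711057, minus strand: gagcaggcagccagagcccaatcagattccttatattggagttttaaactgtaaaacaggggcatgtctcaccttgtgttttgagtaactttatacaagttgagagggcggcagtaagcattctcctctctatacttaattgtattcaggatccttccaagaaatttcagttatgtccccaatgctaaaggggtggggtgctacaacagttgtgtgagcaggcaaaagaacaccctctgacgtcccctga
Glul, chr1:153899679-153899928, plus strand: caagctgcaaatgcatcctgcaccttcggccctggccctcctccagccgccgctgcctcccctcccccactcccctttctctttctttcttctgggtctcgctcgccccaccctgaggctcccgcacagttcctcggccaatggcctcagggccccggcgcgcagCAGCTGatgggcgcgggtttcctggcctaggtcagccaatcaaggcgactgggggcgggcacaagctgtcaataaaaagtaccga
Glud1, chr14:34310477-34310726, plus strand: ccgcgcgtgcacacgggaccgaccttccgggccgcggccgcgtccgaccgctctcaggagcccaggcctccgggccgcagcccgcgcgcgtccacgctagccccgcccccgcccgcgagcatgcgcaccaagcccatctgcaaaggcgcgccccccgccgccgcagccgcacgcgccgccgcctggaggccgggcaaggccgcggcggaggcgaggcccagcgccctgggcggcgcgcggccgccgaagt
The 3 sequences differ in base composition, with 44.8% G and C at Slc1a3, 64.8% at Glul and 82.0% at Glud1, against a mean of 53.2% over 32817 promoters. CAGCTG was found at Glul, in 1 of the 6 promoters of these genes, and in 13.01% of all. TGGGAA (the RBPJ core), TTGGCA (a partial NFI site) and ACAATG (a SOX core) were each found in 0 of the 6 promoters, and in 21.6%, 12.3% and 10.7% of all. Among the 6, the Slc25a18 window holds 190 bases of annotated exons. The Slc1a2 window (chr2:102706188-102706437) lies inside the annotated gene, so that these windows are not wholly upstream of the GENCODE start. Both strands were searched, and CAGCTG reads the same on both. These are matches of letters in this window and nothing more.

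The 4 libraries kept 4027 to 7004 cells each, with medians of 11854 to 14303 UMIs per cell, and pairs of libraries shared 5 to 12 barcodes. Cells of P12 fell into 16 clusters, formed without the 8 genes, without 31 other genes of the pathway and without 11 genes of the regional gates. From marker lists, clusters were called qNSC-like (quiescent neural stem cells), aNSC-like (activated), TAP-like (transit-amplifying progenitors), neuroblast-like, astrocyte-like, ependymal-like, oligodendroglial-like, endothelial-like and microglia-like, and cells of P2 and P22 took these names by label transfer. Scrublet called 3 to 108 doublets per library, and they were kept in the sums. Of the 3 qNSC-like clusters, cluster 0 was led by Thbs4 and Hopx, cluster 2 by Col23a1 and cluster 1 by Six3. In cluster 1 the mean log2 fold of the astrocyte markers over other cells was 0.73 and that of the qNSC markers 0.11. Its top 10 genes held 0 markers of either list, so that results without it are given where they differ. Cluster 2 had 0.17 and -0.07 for these lists, with 4 of the 10 qNSC markers higher, and no result without it is given. The qNSC markers were highest in the astrocyte-like cluster 8 (1.38), and the aNSC markers had 0.04 in the aNSC-like cluster 9. A cluster led by Igf1 and one of low UMI counts were left unnamed. In 55.8% of P12 cells, a name given to each cell by its own highest marker score was the same as that of its cluster. Results under that naming are given where a call is lost. Levels below are counts per 1000000 UMIs of the class in a library (CPM).

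**Figure D1:**
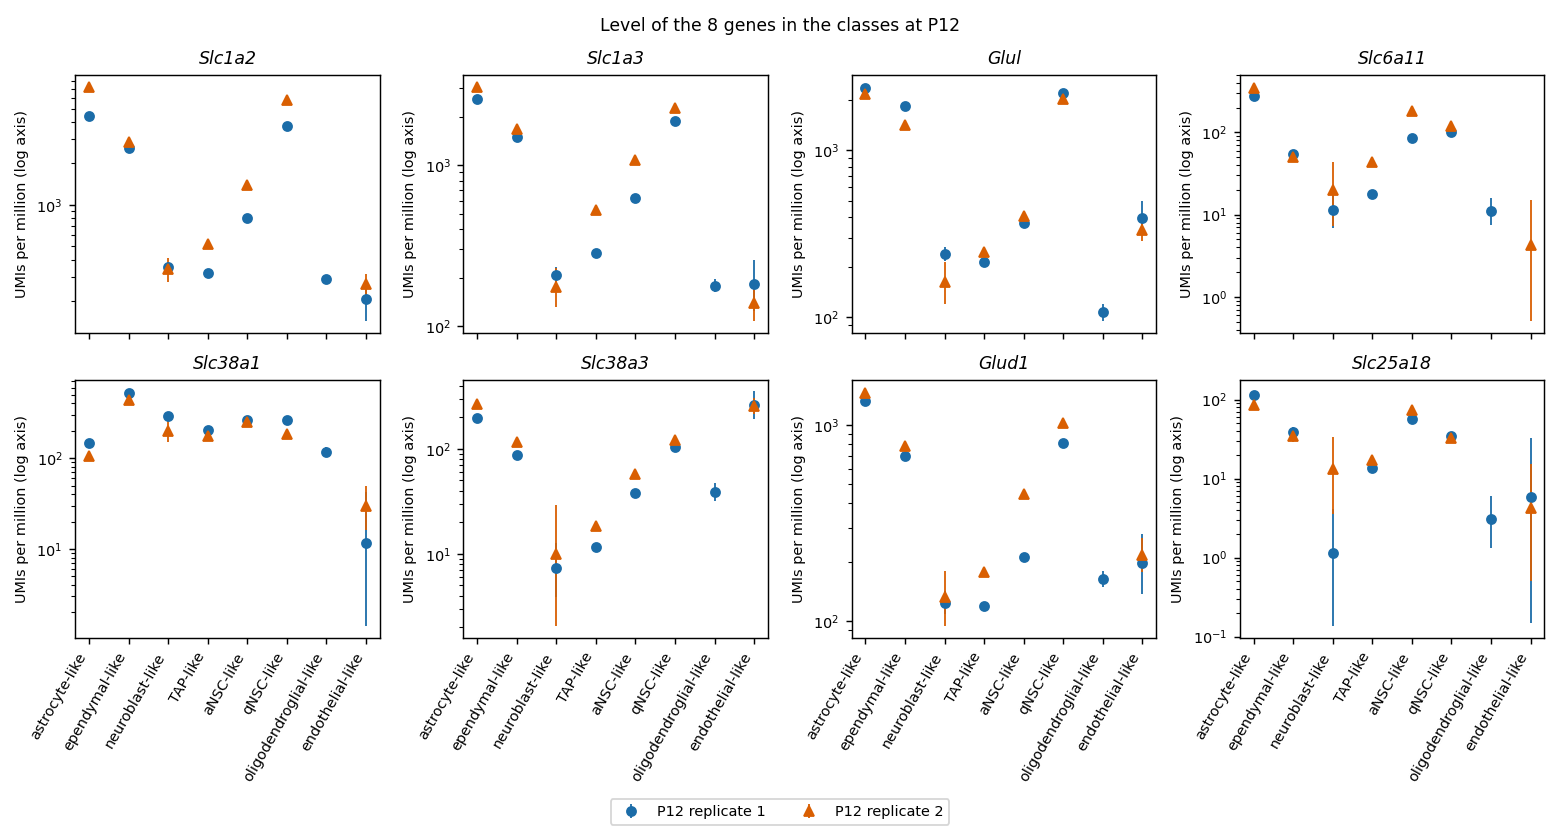
Level of each of the 8 genes in 8 classes of cells at P12, in CPM on a log axis, with 1 point per library and bars for the 95% Poisson interval (counting error only). A library with 0 UMIs or under 10 cells in a class has no point. Slc1a2, Slc1a3, Glul and Glud1 had their highest levels among these classes in astrocyte-like and qNSC-like cells, Slc38a1 lay highest in ependymal-like cells, and Slc38a3 was as high in endothelial-like as in astrocyte-like cells.

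Among the named classes of P12 the glutamate carriers and Glul had their highest levels in astrocyte-like and qNSC-like cells. In the unnamed cluster of low UMI counts Slc1a2 measured 4611 and 6333 CPM. Slc1a2 measured 4390 and 7204 CPM in astrocyte-like cells and 3711 and 5773 CPM in qNSC-like cells (replicates 1 and 2), and Slc1a3 measured 2578 and 3041 CPM in astrocyte-like cells and 1878 and 2247 CPM in qNSC-like cells. Replicate 2 was higher in both classes. For Glul the levels were 2371 and 2164 CPM in astrocyte-like cells and 2200 and 2020 CPM in qNSC-like cells. The classes thus overlapped across replicates, while astrocyte-like cells were higher within each replicate. In a fit over all genes with the library as a block (edgeR quasi-likelihood test, Benjamini-Hochberg over 15032 genes), none of these 3 differed between the classes at the 0.05 threshold. The log2 fold changes were 0.32 ± 0.18 for Slc1a2 (SE, adjusted p = 0.23), 0.48 ± 0.19 for Slc1a3 (adjusted p = 0.090) and 0.14 ± 0.15 for Glul (adjusted p = 0.55).

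Slc1a3 did not overlap between the classes and was called in 4 of 11 alternatives. Slc1a3, Slc1a2 and Glul were each higher in astrocyte-like cells in 4 of 4 libraries. The other 5 genes passed the test. Slc6a11, the GABA carrier, was 2.87-fold higher in astrocyte-like cells, with 280 and 347 CPM there, against 102 and 121 CPM in qNSC-like cells (log2 fold change 1.52 ± 0.24, edgeR adjusted p = 0.00065). Slc25a18 was 3.06-fold higher, with 116 and 86.4 CPM in astrocyte-like cells, against 34.9 and 32.4 CPM in qNSC-like cells (1.61 ± 0.21, adjusted p = 0.00015). Slc38a3 was 2.09-fold higher, with 197 and 267 CPM against 104 and 122 CPM (1.06 ± 0.11, adjusted p = 3.5e-05). Both mitochondrial genes moved the same way, since Glud1 was also higher, with 1331 and 1461 CPM in astrocyte-like cells against 817 and 1026 CPM in qNSC-like cells (0.65 ± 0.18, adjusted p = 0.022). Slc38a1 ran the other way, with 147 and 106 CPM in astrocyte-like cells and 263 and 185 CPM in qNSC-like cells (-0.79 ± 0.12, adjusted p = 0.00055), but at P2 it was higher in astrocyte-like cells, with 27.7 CPM against 16.8 CPM. Its mean P12 levels were 346 CPM in the qNSC-like cluster 0, 67.1 CPM in cluster 1 and 118 CPM in cluster 2. Only cluster 0 lay above the astrocyte-like mean of 126 CPM. No level of one class overlapped the other for these 5 genes. How many of all genes had no overlap, or kept 1 direction in 4 of 4 libraries, was not counted, here or elsewhere. Of the 8 genes, 4 rose, 1 fell and 3 did not pass, where 21.2% of all genes tested were called, 10.5% as higher and 10.7% as lower. The median log2 fold change of the 8 was 0.57, against -0.03 over all genes. With cells named by their own marker scores, no gene of the 8 and 4 genes of all were called in this comparison, and with the P2 and P22 libraries added 3 of the 8 were called, without Glud1 and Slc38a1, as was the case without the library block.

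The other genes of the pathway were 31 by list, of which 27 were tested here, and 11 of them rose while 1 fell in astrocyte-like cells. Among ion and junction partners of uptake, 4 of 6 rose, led by Slc4a4, a sodium bicarbonate cotransporter, at 946 and 1284 CPM in astrocyte-like cells against 173 and 244 CPM in qNSC-like cells (log2 fold change 2.46 ± 0.24, edgeR adjusted p = 1.6e-05). Among other transporters 4 of the 8 tested rose and 1 fell. Slc1a4, a neutral amino acid carrier, rose by 1.15 ± 0.14 on the log2 scale (adjusted p = 0.0001). The gene that fell was Slc38a2, a system A carrier like Slc38a1, at -0.78 ± 0.11 (adjusted p = 0.00031). The smallest rises that passed were those of Aldh5a1, of GABA breakdown, at 0.55 ± 0.14, and of Slc7a11, the cystine-glutamate exchanger, at 0.61 ± 0.16. Of 10 genes of glutamate and GABA metabolism 3 rose, and of the 3 tested neuronal genes none was called.

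In ependymal-like cells, the ciliated cells of the ventricle wall, Slc38a1 had its highest level of any class compared, with 523 and 442 CPM, against 263 and 185 CPM in qNSC-like cells (log2 fold change 1.08 ± 0.12, edgeR adjusted p = 5.9e-05). Slc1a2 was lower there, with 2603 and 2850 CPM against 3711 and 5773 CPM in qNSC-like cells (-0.80 ± 0.18, adjusted p = 0.011), and so was Slc6a11, with 54.5 and 50.6 CPM against 102 and 121 CPM (-1.10 ± 0.26, adjusted p = 0.016). The levels of the classes did not overlap for these 3 genes, and the share of all genes without overlap was not counted. For the other 5 the log2 fold changes ran between -0.41 and 0.09 and none passed. Thus 1 gene rose and 2 fell of the 8, where 9.81% of all genes were called, 6.95% as higher and 2.86% as lower. Under naming by marker score 0 of the 8 were called in ependymal-like cells, and without the library block 1 of the 8 was called.

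Of the 8 genes, 5 fell in activated cells. In aNSC-like cells Glul measured 370 and 403 CPM, against 2200 and 2020 CPM in qNSC-like cells, a fall to 0.165 of the qNSC-like level (log2 fold change -2.60 ± 0.15, edgeR adjusted p = 2.4e-08). Slc1a2 fell to 804 and 1389 CPM in aNSC-like cells, against 3711 and 5773 CPM (-2.28 ± 0.18, adjusted p = 3.1e-07). Slc1a3 fell less, with 626 and 1079 CPM against 1878 and 2247 CPM in qNSC-like cells (-1.46 ± 0.19, adjusted p = 2.4e-05). Glud1 fell to 212 and 445 CPM, against 817 and 1026 CPM (-1.69 ± 0.19, adjusted p = 5.1e-06), and Slc38a3 to 37.9 and 58.1 CPM, against 104 and 122 CPM (-1.42 ± 0.12, adjusted p = 3.8e-07). The classes did not overlap for any of these 5 genes, and all 5 were lower in aNSC-like cells in 4 of 4 libraries. The shares of all genes that did the same were not counted.

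The remaining 3 genes did not follow. Slc25a18, the mitochondrial glutamate carrier, rose in aNSC-like cells, with 57.4 and 75.0 CPM against 34.9 and 32.4 CPM in qNSC-like cells (log2 fold change 0.81 ± 0.21, edgeR adjusted p = 0.0042), and was higher in 4 of 4 libraries. Slc6a11 had 85.2 and 183 CPM in aNSC-like cells and 102 and 121 CPM in qNSC-like cells (0.03 ± 0.24, adjusted p = 0.93). Slc38a1 had 262 and 248 CPM in aNSC-like cells and 263 and 185 CPM in qNSC-like cells (0.06 ± 0.12, adjusted p = 0.69). One of the 8 genes rose and 5 fell where 60.2% of all genes were called, 25.8% as higher and 34.4% as lower, and the normalization moved all genes of this comparison by -0.15 on the log2 scale. aNSC-like cells hold cluster 7, led by Ung and Cdc6, and cluster 9, led by Olig1. Slc25a18 measured 52.9 CPM in cluster 7 and 88.0 CPM in cluster 9 (means over the replicates), and without cluster 9, left out after the data were seen, its difference was 0.47 on the log2 scale and no longer passed. It also did not pass with cells named by marker score (0.07, edgeR adjusted p = 0.89) or with the P2 and P22 libraries added (0.77, adjusted p = 0.062), and was called in 9 of 12 alternatives.

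In the rest of the pathway the junction and ion partners fell with the carriers, 6 of 6. The largest falls were those of the connexins Gjb6 (log2 fold change -3.94 ± 0.27, edgeR adjusted p = 8e-08) and Gja1 (-3.18 ± 0.28, adjusted p = 6.9e-07) and of the sodium pump subunit Atp1b2 (-1.98 ± 0.16, adjusted p = 3.1e-07). Of 10 genes of glutamate and GABA metabolism 3 rose and 1 fell. Among the 6 pathway genes that rose, the glutamine carrier Slc1a5 had 7.57 and 14.3 CPM in aNSC-like cells, against 0.839 and 1.09 CPM in qNSC-like cells. Gad2, which makes GABA, had 17.7 and 0.867 CPM in aNSC-like cells, against 1.20 and 0.316 CPM, and the vesicular glutamate transporter Slc17a6 0.793 and 1.16 CPM, against 0.0280 and 0.0287 CPM. The qNSC-like levels of Slc17a6 rest on very few UMIs.

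**Figure D2:**
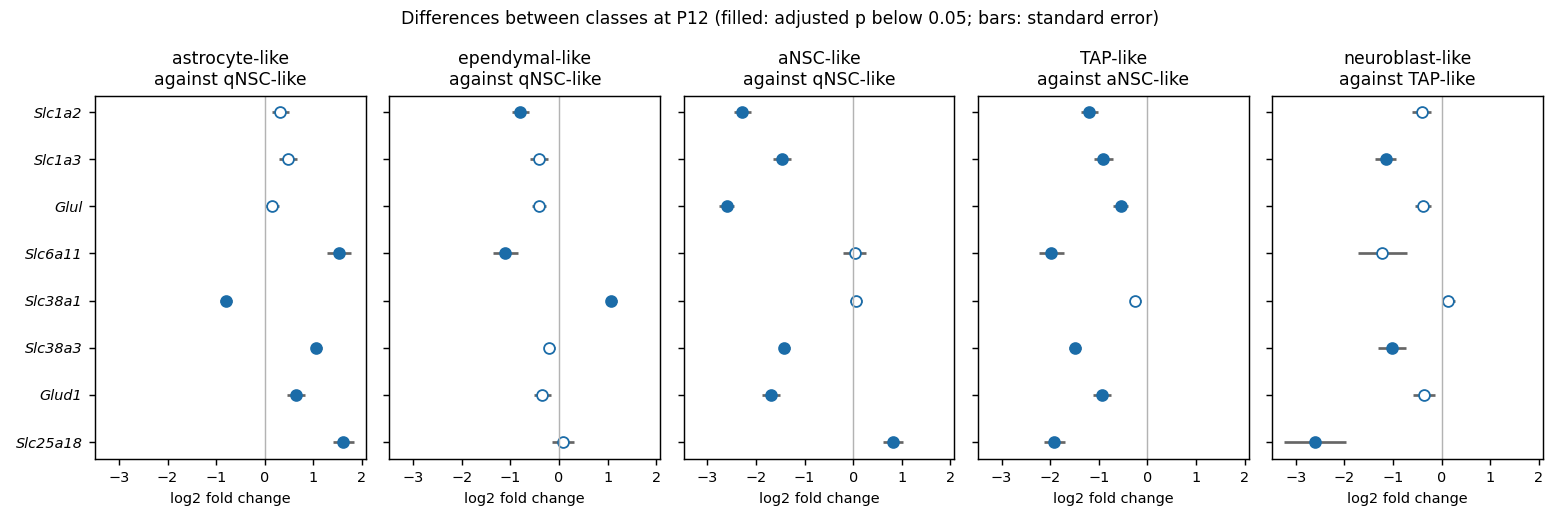
Log2 fold change of each of the 8 genes in 5 comparisons of classes at P12, with bars for the standard error and filled points for an adjusted p below 0.05 (edgeR). Slc38a1 is the 1 gene called as lower in astrocyte-like cells and the 1 called as higher in ependymal-like cells, and Slc25a18 is the 1 called as higher in aNSC-like cells.

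In amplifying progenitors 7 of the 8 genes were lower than in aNSC-like cells, and none was higher, where 12.2% of all genes tested were called as lower and 14.5% as higher. Slc6a11 had 17.6 and 43.1 CPM in TAP-like cells, against 85.2 and 183 CPM in aNSC-like cells (log2 fold change -1.98 ± 0.25, edgeR adjusted p = 9.6e-05). Slc25a18 had 13.5 and 17.4 CPM, against 57.4 and 75.0 CPM (-1.91 ± 0.22, adjusted p = 3.7e-05), so that Slc6a11 and Slc25a18, which had not fallen in aNSC-like cells, had the largest falls of the 8 here. Slc38a3 fell by 1.49 on the log2 scale, Slc1a2 by 1.20, Glud1 by 0.93, Slc1a3 by 0.91 and Glul by 0.55 (adjusted p between 1.9e-06 and 0.014). Slc38a1 did not pass, with 205 and 176 CPM in TAP-like cells and 262 and 248 CPM in aNSC-like cells (-0.25 ± 0.12, adjusted p = 0.15). All 8 genes were lower in TAP-like cells in 4 of 4 libraries, and the share of all genes that did the same was not counted. The normalization moved this comparison by 0.19 on the log2 scale. Under naming by marker score 0 of the 8 were called here, and without the library block 4 of the 8. The mean log2 fold of the aNSC markers was 1.64 in the TAP-like cluster 3. It was 2.06 in cluster 7 and 0.04 in cluster 9, both aNSC-like, so that these markers do not part the 2 classes cleanly. The TAP markers had 1.79 in cluster 3, against -2.30 in cluster 7 and -2.46 in cluster 9.

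Of the 27 other pathway genes 6 rose and 9 fell in TAP-like cells. The largest falls included those of Slc4a4 (log2 fold change -1.47 ± 0.24) and of Gjb6 (-1.23 ± 0.38). The largest rises were those of Gad2, with 142 and 6.75 CPM in TAP-like cells against 17.7 and 0.867 CPM in aNSC-like cells, of Slc17a6, and of the aspartate-glutamate carrier Slc25a13 (1.05 ± 0.31, edgeR adjusted p = 0.025).

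In neuroblast-like cells, named for young neurons, 3 of the 8 genes were lower than in TAP-like cells. Of all genes, 32.8% were called, 13.7% as higher and 19.1% as lower. Slc1a3 had 209 and 176 CPM in neuroblast-like cells, against 283 and 523 CPM in TAP-like cells (log2 fold change -1.15 ± 0.22, edgeR adjusted p = 0.0013), and Slc38a3 had 7.34 and 9.96 CPM, against 11.6 and 18.6 CPM (-1.02 ± 0.29, adjusted p = 0.015). Slc25a18 was called as well (-2.60 ± 0.63, adjusted p = 0.0069), but on 2 UMIs in replicate 1 and 4 UMIs in replicate 2, and without replicate 1 its value was -0.64. Slc38a1, the carrier known from neurons, had 292 and 199 CPM in neuroblast-like cells and 205 and 176 CPM in TAP-like cells (0.14 ± 0.14, adjusted p = 0.48). Slc1a2, Glul, Slc6a11 and Glud1 did not pass. Replicate 2 held 16 neuroblast-like cells, and the normalization moved this comparison by -0.25 on the log2 scale. The class joined cluster 12, led by Pcp4 and Eomes (65 and 10 cells), and cluster 13, led by Islr2 (61 and 6 cells). The mean log2 fold of the neuroblast markers was 1.04 in cluster 12 and 4.31 in cluster 13. In the TAP-like cluster 6 it was 1.92, above that of cluster 12. Slc38a1 measured 218 CPM in cluster 12 (mean over the replicates) and 341 CPM in cluster 13 (replicate 1 alone), so that its level in the class depends on their mix. Under naming by marker score, most directions turned. Slc1a2, Glul and Glud1 passed as higher in neuroblast-like cells (1.86, 1.48 and 1.21 on the log2 scale), and Slc1a3 and Slc38a3 had 0.76 and 1.03 and did not pass.

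Among the other pathway genes 7 rose and 9 fell in neuroblast-like cells. Slc17a6 reached 101 and 36.5 CPM, against 2.28 and 11.2 CPM in TAP-like cells, and the vesicular GABA transporter Slc32a1 54.2 and 93.0 CPM, against 10.95 and 0.220 CPM. The neuronal glutamate carrier Slc1a1 had 3.39 and 0 CPM in neuroblast-like cells, against 0.117 and 0.165 CPM in TAP-like cells. These Slc1a1 levels rest on few UMIs, and replicate 2 ran the other way. The largest falls were those of Slc25a13 (log2 fold change -2.06 ± 0.55), of the pyruvate carboxylase gene Pcx (-1.76 ± 0.41) and of Slc7a11 (-1.49 ± 0.40).

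Low levels of the astroglial genes have to be read beside what free RNA leaves in any droplet. Of the classes that are no astroglia, the 10 microglia-like cells of P12 replicate 2 had 1110 CPM of Slc1a2, 1744 CPM of Slc1a3 and 1218 CPM of Glul, above the levels of aNSC-like cells of replicate 2 for Slc1a3 and Glul. Slc1a2 held 38.9% of the UMIs of Slc1a2 and Slc1a3 in these microglia-like cells. In that library it held 65.4% in endothelial-like, 56.3% in aNSC-like and 72.0% in qNSC-like cells. At P22 it held 11.3% in microglia-like and 63.9% in qNSC-like cells. The source of the microglia-like levels was not tested. In endothelial-like cells of P12, Slc1a2 measured 206 and 264 CPM, Slc1a3 182 and 139 CPM, Glul 394 and 336 CPM and Glud1 200 and 219 CPM. Neuroblast-like cells, with 353 and 339 CPM of Slc1a2, 209 and 176 CPM of Slc1a3, 240 and 163 CPM of Glul and 125 and 133 CPM of Glud1, lay below the endothelial-like levels for Glul and Glud1 and above or across them for Slc1a2 and Slc1a3. Among cells thinned to 5000 UMIs, 56.7% of neuroblast-like and 64.1% of TAP-like cells had a Slc1a2 UMI, against 27.0% of endothelial-like and microglia-like cells and 61.3% of oligodendroglial-like cells. Before thinning these shares were 74.6%, 93.6%, 53.8% and 93.5%, at median depths of 14123, 26914, 11470 and 21881 UMIs, and thinning left out 1, 12, 2 and 4 cells. In aNSC-like cells 91.5% of thinned cells had one and in qNSC-like cells 100%. For Slc6a11, 66.4% of astrocyte-like, 37.7% of qNSC-like and 34.8% of aNSC-like cells had a UMI of it at 5000 UMIs, against 11.1% of TAP-like, 4.3% of neuroblast-like and 1.6% of endothelial-like and microglia-like cells. Slc38a3 was not low in endothelial-like cells, with 264 and 257 CPM. How much of the remaining signal is free RNA was not tested.

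Across classes of P12 the 8 genes formed no single pattern. Over 16 levels (9 classes in up to 2 libraries, which share depth and free RNA), log2 levels of Slc1a2 had a Pearson r of 0.96 with Slc1a3, 0.95 with Glud1 and 0.91 with Glul. Slc38a1 had an r of 0.44 with Slc1a2 and -0.47 with Slc38a3. Among 5885 genes with at least 50 CPM in a class of both libraries, the level of Slc1a2 was most like that of Slc27a1 (r = 0.98), a fatty acid carrier, that of Glul like Lgi4 (0.99), and that of Slc1a3 like Ston2 (0.97). Slc25a18 was most like Fgfr3 (0.95) and then Aldh1l1 (0.90), an astrocyte enzyme, Slc6a11 most like Tst (0.96), Glud1 like Pla2g7 (0.97), Slc38a3 like Kif1c (0.96) and Slc38a1 like Idh2 (0.93). Dio2, which activates thyroid hormone, was among the 3 closest for both Slc1a2 and Slc1a3.

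Pallial and subpallial stem cells of the dorsal V-SVZ give rise to glutamatergic and GABAergic neurons, and were told apart here by regional transcription factors and Gad1. In qNSC-like cells of P12, 2 of the 8 genes were higher in pallial cells, where 4.43% of all genes were called, 2.22% as higher and 2.21% as lower. Slc38a1 measured 352 and 286 CPM in pallial cells, against 136 and 55.2 CPM in subpallial cells (log2 fold change 1.81 ± 0.23, edgeR adjusted p = 0.00022), a 3.50-fold difference. It was higher in pallial cells at P2 too, with 23.5 against 9.22 CPM, and at P22, with 126 against 63.4 CPM. Slc25a18 measured 40.7 and 40.2 CPM in pallial cells, against 26.1 and 17.0 CPM in subpallial cells (0.95 ± 0.21, adjusted p = 0.016). Its levels in P2 cells were 47.4 CPM (pallial) and 25.4 CPM (subpallial), and in P22 cells 13.6 and 5.52 CPM, the last on 11 and 12 UMIs.

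The other 6 genes were lower in pallial cells on average and did not pass. Slc6a11 had 81.7 and 82.2 CPM in pallial qNSC-like cells and 139 and 185 CPM in subpallial ones (log2 fold change -0.93 ± 0.29, edgeR adjusted p = 0.094), and its levels did not overlap at P12. At P22 the levels were 40.9 CPM (pallial) and 93.8 CPM (subpallial), and at P2 87.6 and 82.2 CPM. Slc1a2 had 3400 and 4753 CPM in pallial cells and 4257 and 7810 CPM in subpallial cells (-0.50 ± 0.20, adjusted p = 0.21), and was lower in pallial cells in 4 of 4 libraries. Slc1a3, Glul, Slc38a3 and Glud1 differed by -0.29 to -0.08 on the log2 scale. Of these, Slc1a3 (1750 and 1990 CPM in pallial cells, 2024 and 2652 CPM in subpallial cells) and Slc38a3 (102 and 115 CPM, 120 and 137 CPM) did not overlap at P12. Other pathway genes showed 1 rise, of Gjb6 (0.96 ± 0.23, adjusted p = 0.024), and 1 fall, of Abat, which breaks GABA down (-0.82 ± 0.19, adjusted p = 0.022), among 25 tested.

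Region and cluster went together. Cluster 1 held 68.0% and 92.4% of the subpallial qNSC-like cells of the P12 replicates, against 1.31% and 1.79% of the pallial ones. Its mean levels were 67.1 CPM of Slc38a1, 18.4 CPM of Slc25a18 and 165 CPM of Slc6a11, against 346, 41.0 and 75.6 CPM in cluster 0. The summed astrocyte markers were 1019 and 1055 CPM in pallial and 1218 and 1417 CPM in subpallial qNSC-like cells, and their part in the difference was not tested. Without cluster 1, left out after the data were seen, 0 of the 8 genes and 5 of all genes passed, Slc38a1 at 0.58 and Slc25a18 at 0.25 on the log2 scale. Slc25a18 also did not pass with the 4 libraries together, without the library block or with cells named by marker score.

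**Figure D3:**
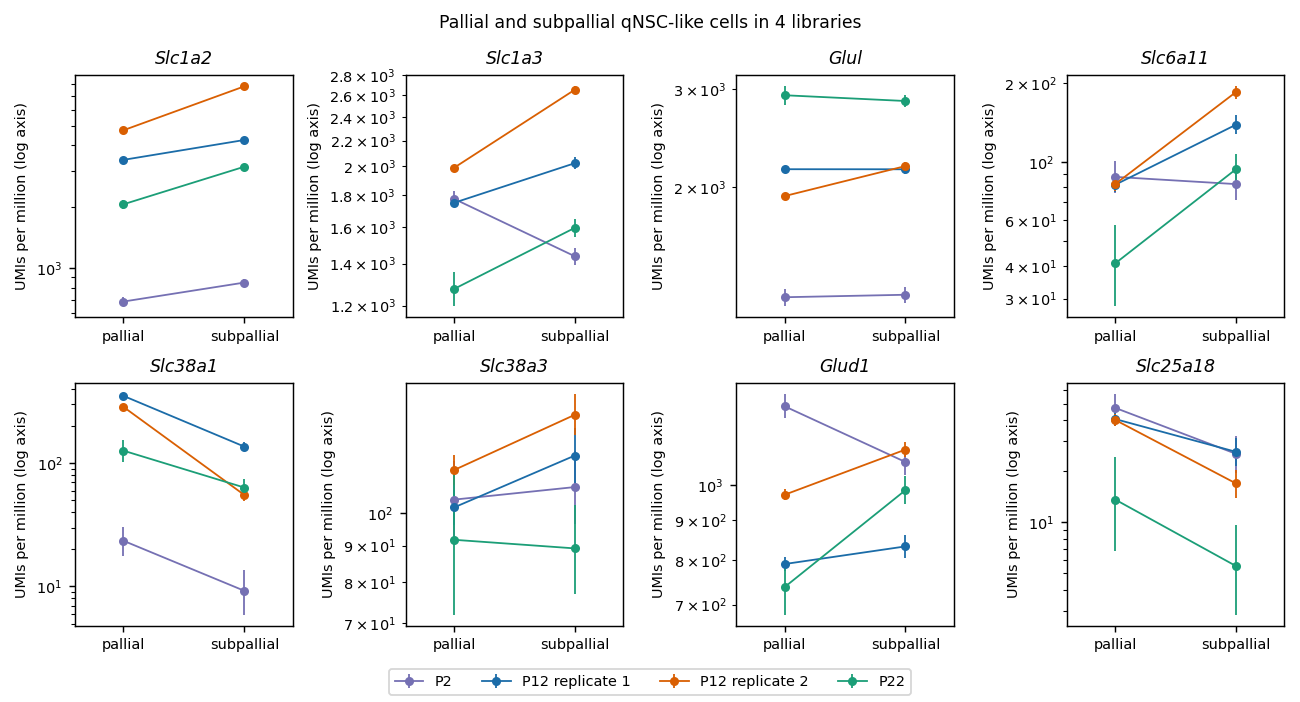
Levels of the 8 genes in pallial and subpallial qNSC-like cells of each library, in CPM on a log axis, with lines joining the cells of 1 library and bars for the 95% Poisson interval (counting error only). Slc38a1 and Slc25a18 are higher in pallial cells in all 4 libraries, and Slc1a2 is lower.

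The regional difference of Slc25a18 was seen in TAP-like cells as well, with 23.6 and 17.5 CPM in pallial and 7.73 and 11.05 CPM in subpallial cells (log2 fold change 1.06 ± 0.24, edgeR adjusted p = 0.015), the 1 of the 8 genes called where 5.96% of all genes were, 4.22% as higher and 1.74% as lower. The normalization moved this comparison by -0.12 on the log2 scale. The call did not pass in thinned cells, in a fit of these 2 groups alone or without the library block. In pallial aNSC-like cells Slc25a18 had 76.9 and 75.2 CPM, against 38.7 and 48.0 CPM in subpallial ones (0.78 ± 0.22, adjusted p = 0.13). The other 7 genes differed by -0.38 to 0.53 there and by -0.11 to 0.54 in TAP-like cells. None of the 8 was called in aNSC-like cells, where 1.05% of all genes were called, 139 in number. Of the 25 other pathway genes tested, 2 rose and 5 fell in pallial TAP-like cells. Slc17a6 had 12.5 and 33.0 CPM in pallial cells, against 0 and 0.165 CPM in subpallial ones, and Pcx 26.5 and 30 CPM, against 12.7 and 19.5 CPM. Slc32a1 had 0 and 0 CPM, against 15.5 and 0.330 CPM, Gad2 18.9 and 2.47 CPM, against 189 and 15.7 CPM, and Abat 9.30 and 10.6 CPM, against 19.6 and 20.8 CPM. The gate itself sorts cells by Gad1, Dlx genes and factors of glutamatergic neurons. Differences of Slc17a6, Slc32a1 and Gad2 are therefore not independent of the gate, and how far they follow from it was not tested.

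Astrocyte-like cells were few once split, with 52 and 59 pallial and 38 and 54 subpallial cells. Slc38a1 measured 183 and 155 CPM in pallial astrocyte-like cells and 86.6 and 89.3 CPM in subpallial ones (log2 fold change 0.88 ± 0.30, edgeR adjusted p = 0.62), and Slc6a11 208 and 254 CPM in pallial and 393 and 396 CPM in subpallial ones (-0.80 ± 0.33, adjusted p = 0.71). Levels did not overlap for either gene. The other 6 differed by -0.20 to 0.30. No gene of the 8 passed, and 0.0226% of all genes did, 3 in number, while 846 had an unadjusted p under 0.05. As higher 0.00752% were called and as lower 0.015%. The test of whether the pallial minus subpallial difference itself differed between astrocyte-like and qNSC-like cells called none of the 8, and 0.00752% of all genes, the 1 gene being lower (0.00752%). For Slc38a1 the difference of differences was -0.92 ± 0.38 (adjusted p = 0.81).

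Between P2 and P22 the genes parted. With 1 library at each of these ages there is no test, the intervals cover counting error only, and age cannot be told apart from library. The file headers name Cell Ranger 3.1.0 at P12 and 5.0.1 at P2 and P22. The qNSC-like name had a median transfer score of 0.79 at P2 and 0.97 at P22. Summed qNSC markers of pallial and subpallial qNSC-like cells were 3372 and 3084 CPM at P2. They were 10131 and 6941 CPM in P12 replicate 1, 9660 and 6269 CPM in replicate 2, and 13989 and 9017 CPM at P22. The paper reports that pallial qNSCs were nearly absent at P2. Whether the ages compare like cells was not tested. In qNSC-like cells Slc1a2 had 765 CPM at P2, 3711 and 5773 CPM at P12 and 2725 CPM at P22, a log2 ratio of P22 over P2 of 1.83 (1.79 to 1.88). Glul had 1254, 2200 and 2020, and 2963 CPM, a ratio of 1.24 (1.20 to 1.28). Slc38a1 had 16.8 CPM at P2, 263 and 185 CPM at P12 and 75.3 CPM at P22, a ratio of 2.16 (1.88 to 2.46). Slc25a18 went the other way, with 35.8 CPM at P2, 34.9 and 32.4 CPM at P12 and 8.69 CPM at P22, a ratio of -2.04 (-2.50 to -1.60).

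Slc1a3 hardly moved, with 1628 CPM at P2, 1878 and 2247 CPM at P12 and 1542 CPM at P22, a log2 ratio of P22 over P2 of -0.08. Slc6a11, Slc38a3 and Glud1 had ratios of -0.17, -0.15 and -0.29. Thus 3 of the 8 genes lay more than 2-fold higher at P22 and 1 more than 2-fold lower in qNSC-like cells, where 5.73% of 6906 genes lay that far above and 5.20% that far below. By UMI share Slc1a2 was below Slc1a3 at P2 and above it in the later libraries in qNSC-like and astrocyte-like cells. Of the UMIs of both, Slc1a2 held 32.0% at P2, 66.4% and 72.0% at P12 and 63.9% at P22 in qNSC-like cells. In astrocyte-like cells it held 26.3% at P2, 63.0% and 70.3% at P12 and 63.9% at P22. Capture of the 2 transcripts can differ, so that the shares are not shares of molecules per cell. In qNSC-like cells Slc38a3 held 86.5% of the UMIs of Slc38a3 and Slc38a1 at P2, 28.3% and 39.7% at P12 and 56.2% at P22. In astrocyte-like cells it held 85.6% at P2, 57.4% and 71.6% at P12 and 83.6% at P22.

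**Figure D4:**
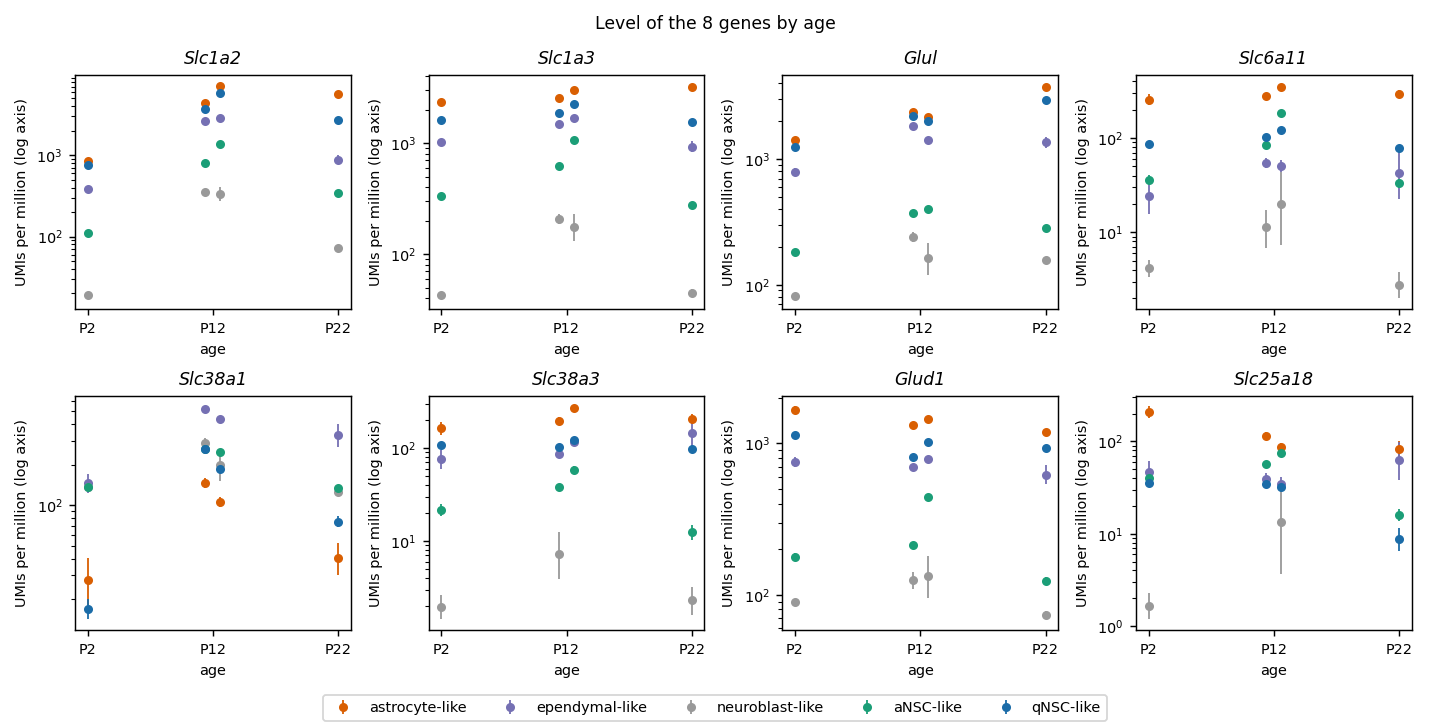
Levels of the 8 genes at P2, P12 (2 libraries, set slightly apart) and P22 in 5 classes, in CPM on a log axis, with bars for the 95% Poisson interval (counting error only) and no point for 3 UMIs or fewer. Slc1a2 and Glul lie lowest at P2 in each class drawn, and Slc25a18 of qNSC-like and aNSC-like cells lies lowest at P22.

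Other classes shared some of these changes. In astrocyte-like cells Slc1a2 had 845 CPM at P2, 4390 and 7204 CPM at P12 and 5713 CPM at P22 (log2 ratio of P22 over P2 2.76), and Glul 1421, 2371 and 2164, and 3768 CPM (1.41). Slc25a18 had 208, 116 and 86.4, and 82.4 CPM (-1.34). Slc6a11 held its level there, with 255 CPM at P2, 280 and 347 CPM at P12 and 293 CPM at P22. Thus 2 genes lay past 2-fold above and 1 below in astrocyte-like cells, against 8.75% and 12.0% of all genes. In aNSC-like cells Slc1a2 was the 1 gene past 2-fold above (1.63) and Slc25a18 the 1 below (-1.33), against 0.906% and 1.54% of all genes. In ependymal-like cells 2 of the 8 lay past 2-fold above (Slc1a2 and Slc38a1, both 1.20) and 0 below, against 14.4% and 7.75% of all genes. In TAP-like cells 1 lay above (Slc1a2, 1.32) and 2 below (Slc6a11, -1.13, and Slc25a18, -1.72), against 0.523% and 0.951%. The shares of all genes are over genes of at least 20 CPM at either age, and these 2 lower genes lay under that at both ages. The P2 library held 52 astrocyte-like and 49 ependymal-like cells and the P22 library 112 and 26.

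Slc1a2 also lay 1.46 higher on the log2 scale at P22 than at P2 in oligodendroglial-like cells and 1.91 higher in neuroblast-like cells, at levels of 44.3 to 122 CPM and 19.1 to 71.5 CPM, and the part of free RNA in these was not tested. In neuroblast-like cells Slc1a2 was the 1 gene past 2-fold above and 0 were below, against 1.78% and 5.4% of all genes, and in oligodendroglial-like cells 3 were above (Slc1a2, Glul and Slc6a11, the last under 20 CPM at both ages) and 1 below (Slc38a1), against 11.9% and 6.8%. Cluster 13 held 1720 of the 2036 neuroblast-like cells at P2, 61 of 126 and 6 of 16 at P12, and 1416 of 1476 at P22. The make-up of the qNSC-like class changed with age as well, since cluster 0 held 4.41% of it at P2, 57.7% and 53.2% at P12 and 44.7% at P22. Within cluster 1 alone, with 238 cells at P2 and 320 at P22, the log2 ratios of P22 over P2 were 2.07 for Slc1a2, 1.27 for Glul, 2.46 for Slc38a1 and -2.10 for Slc25a18. In cluster 0, with 21 cells at P2 and 279 at P22, they were 1.54, 1.24, 0.79 and -1.34, and in cluster 2, with 217 and 25 cells, 1.61, 1.08, 1.76 and -0.86, the last with an interval across 0 (-2.50 to 0.39).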

How the data were processed

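The submitters' processing notes and the methods name Cell Ranger with mm10. Per the file headers it was version 3.1.0 for P12 and 5.0.1 for P2 and P22, and the authors deposited raw UMI counts for 31053 genes, with no normalization. Cells with more than 2000 and fewer than 8000 genes and under 10% mitochondrial UMIs were kept. P12 cells were integrated and clustered with Seurat 5.3.0 (2000 variable genes, 20 components, resolution 0.5), with 50 genes held out. The other 1980 variable genes formed the clusters, and P2 and P22 cells took their class by label transfer. Cells were gated as pallial by any of 5 genes (Tbr1, Neurog2, Neurod6, Neurod1, Emx1) over 0.25 on the log-normalized scale with all 6 of the other set (Gad1, Dlx2, Sp9, Dlx5, Dlx6, Gsx2) at or under it, and as subpallial the other way round. UMIs were summed per library and class and tested with edgeR 4.0.16 (TMM, filterByExpr, library as block, 5 residual degrees of freedom for classes and 7 for regions, adjusted p threshold 0.05). The numbers pair the sums because sums of 1 number come from the same library. With the library as block, p-values measure how much the differences between groups vary from 1 of the 2 libraries to the other. That spread is estimated over all groups of a fit and not from the 2 compared alone. DESeq2 1.42.0 was an alternative. Shares have Clopper-Pearson intervals. Intervals of levels and age ratios are exact Poisson or conditional ones and cover counting error only. The test was tried on simulated data. Alternatives are given in the closing section. The 8 genes are named or given by their range in each comparison, and of other pathway genes the 3 highest and 3 lowest called, except that some results are not reported here. The genes and lists were chosen with earlier results of these data known.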

Additional observations from a re-analysis of the deposited data

How the results depend on the processing

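Of 784 tested values of the 8 genes under alternatives, 648 kept direction and side of the threshold, 41 lost the call, 49 gained it and 46 reversed. Leaving out P12 replicate 1 or 2 gives 142 values with no test, of which 17 changed sign, all of genes that were not called (such as Slc6a11 in aNSC-like against qNSC-like cells, 0.44 without replicate 1 and -0.41 without replicate 2). Slc25a18 (-0.64 without replicate 1) and Slc38a3 (-0.92 without replicate 2) in neuroblast-like against TAP-like cells, and Slc38a3 in pallial against subpallial qNSC-like (-0.25 without replicate 1) and astrocyte-like cells (0.12 without replicate 2), moved by more than the spread of the replicates. Alternatives that leave out cluster 1 or 9 or count cluster 4 as qNSC-like were chosen after seeing the data. With 1 library at P2 and P22, ages have no test, and low classes are limited by few UMIs. The cause of the changes below was not tested. Of all genes, 3191 were called for astrocyte-like against qNSC-like cells, 1474 were called for ependymal-like against qNSC-like cells, 4011 were called for TAP-like against aNSC-like cells, 4924 were called for neuroblast-like against TAP-like cells, 589 were called for pallial against subpallial qNSC-like cells, 139 were called for pallial against subpallial aNSC-like cells, 792 were called for pallial against subpallial TAP-like cells, 3 were called for pallial against subpallial astrocyte-like cells and 1 for the difference of differences as reported. Without the library block, which ends the pairing of sums of 1 library, calls over all genes were 1198 (astrocyte-like against qNSC-like cells), 592 (ependymal-like against qNSC-like cells), 1188 (TAP-like against aNSC-like cells), 3203 (neuroblast-like against TAP-like cells), 83 (pallial against subpallial qNSC-like cells), 17 (pallial against subpallial aNSC-like cells), 182 (pallial against subpallial TAP-like cells), 0 (the difference of differences), and calls among the 8 were 3 (astrocyte-like against qNSC-like cells), 1 (ependymal-like against qNSC-like cells), 4 (TAP-like against aNSC-like cells), 1 (pallial against subpallial qNSC-like cells), 0 (pallial against subpallial TAP-like cells). With cells named by their own marker scores, calls over all genes were 4 (astrocyte-like against qNSC-like cells), 326 (ependymal-like against qNSC-like cells), 557 (TAP-like against aNSC-like cells), 2963 (neuroblast-like against TAP-like cells), 227 (pallial against subpallial qNSC-like cells), 1029 (pallial against subpallial aNSC-like cells), 377 (pallial against subpallial astrocyte-like cells), and calls among the 8 were 0 (astrocyte-like against qNSC-like cells), 0 (ependymal-like against qNSC-like cells), 0 (TAP-like against aNSC-like cells), 1 (pallial against subpallial qNSC-like cells), 1 (pallial against subpallial aNSC-like cells), 2 (pallial against subpallial astrocyte-like cells), and log2 fold changes that reversed were -0.57 for Slc25a18 (ependymal-like against qNSC-like cells), -0.15 for Slc6a11 (aNSC-like against qNSC-like cells), -0.40 for Slc38a1 (aNSC-like against qNSC-like cells), 1.86 for Slc1a2 (neuroblast-like against TAP-like cells), 0.76 for Slc1a3 (neuroblast-like against TAP-like cells), 1.48 for Glul (neuroblast-like against TAP-like cells), 0.61 for Slc6a11 (neuroblast-like against TAP-like cells), -0.11 for Slc38a1 (neuroblast-like against TAP-like cells), 1.03 for Slc38a3 (neuroblast-like against TAP-like cells), 1.21 for Glud1 (neuroblast-like against TAP-like cells), 0.014 for Slc6a11 (pallial against subpallial aNSC-like cells), 0.11 for Slc38a1 (pallial against subpallial TAP-like cells), -0.16 for Glul (pallial against subpallial astrocyte-like cells), -0.23 for Slc38a3 (pallial against subpallial astrocyte-like cells), and counts of the 8 with age intervals apart from 0 were 2 lower at P22 than at P2 (ependymal-like), 5 lower at P22 than at P2 (neuroblast-like). With all 4 libraries, calls over all genes were 2064 (astrocyte-like against qNSC-like cells), 2338 (TAP-like against aNSC-like cells), 951 (pallial against subpallial aNSC-like cells), and calls among the 8 were 3 (astrocyte-like against qNSC-like cells), 6 (neuroblast-like against TAP-like cells), 1 (pallial against subpallial qNSC-like cells), 2 (pallial against subpallial aNSC-like cells), and log2 fold changes that reversed were -0.51 for Slc6a11 (aNSC-like against qNSC-like cells), -0.0076 for Slc38a1 (neuroblast-like against TAP-like cells), 0.45 for Slc1a2 (pallial against subpallial aNSC-like cells), 0.64 for Slc6a11 (pallial against subpallial aNSC-like cells), 0.33 for Glud1 (pallial against subpallial aNSC-like cells), 0.35 for Slc1a2 (pallial against subpallial TAP-like cells), 0.10 for Glud1 (pallial against subpallial TAP-like cells), -0.050 for Glul (pallial against subpallial astrocyte-like cells), -0.036 for Slc38a3 (pallial against subpallial astrocyte-like cells). In fits of the 2 groups alone, calls over all genes were 5399 (astrocyte-like against qNSC-like cells), 3663 (ependymal-like against qNSC-like cells), 2178 (pallial against subpallial qNSC-like cells), 448 (pallial against subpallial aNSC-like cells), 156 (pallial against subpallial TAP-like cells), 105 (pallial against subpallial astrocyte-like cells), and calls among the 8 were 6 (ependymal-like against qNSC-like cells), 6 (pallial against subpallial qNSC-like cells), 2 (pallial against subpallial aNSC-like cells), 0 (pallial against subpallial TAP-like cells), 2 (pallial against subpallial astrocyte-like cells), and log2 fold changes that reversed were 0.032 for Slc6a11 (pallial against subpallial aNSC-like cells), 0.0023 for Slc1a3 (pallial against subpallial astrocyte-like cells). With cells thinned to 5000 UMIs, calls over all genes were 924 (ependymal-like against qNSC-like cells), 2968 (neuroblast-like against TAP-like cells), 64 (pallial against subpallial aNSC-like cells), 388 (pallial against subpallial TAP-like cells), 1 (pallial against subpallial astrocyte-like cells), and calls among the 8 were 0 (pallial against subpallial TAP-like cells), and log2 fold changes that reversed were -0.021 for Slc38a3 (pallial against subpallial aNSC-like cells), 0.019 for Slc38a1 (pallial against subpallial TAP-like cells), 6.6e-05 for Slc1a3 (pallial against subpallial astrocyte-like cells), -0.050 for Slc25a18 (pallial against subpallial astrocyte-like cells), and counts of the 8 with age intervals apart from 0 were 1 lower at P22 than at P2 (TAP-like), 0 lower at P22 than at P2 (ependymal-like), 1 lower at P22 than at P2 (oligodendroglial-like), and the P22 over P2 log2 ratio of Glud1 in TAP-like cells was 0.077. Without the filter on low counts, calls over all genes were 1010 (pallial against subpallial qNSC-like cells), 460 (pallial against subpallial aNSC-like cells), 1319 (pallial against subpallial TAP-like cells), 99 (pallial against subpallial astrocyte-like cells), 91 (the difference of differences), and calls among the 8 were 6 (ependymal-like against qNSC-like cells), 7 (neuroblast-like against TAP-like cells), 4 (pallial against subpallial qNSC-like cells), 2 (pallial against subpallial aNSC-like cells), 2 (pallial against subpallial TAP-like cells), 2 (pallial against subpallial astrocyte-like cells), 1 (the difference of differences), and log2 fold changes that reversed were -0.15 for Slc38a1 (neuroblast-like against TAP-like cells). Without cluster 1, calls over all genes were 5 (pallial against subpallial qNSC-like cells), and calls among the 8 were 0 (pallial against subpallial qNSC-like cells), and log2 fold changes that reversed were -0.14 for Slc25a18 (ependymal-like against qNSC-like cells), -0.27 for Slc38a1 (aNSC-like against qNSC-like cells), 0.012 for Slc1a2 (pallial against subpallial qNSC-like cells), 0.023 for Glul (pallial against subpallial qNSC-like cells), 0.015 for Glud1 (pallial against subpallial qNSC-like cells). With cluster 4 counted as qNSC-like, log2 fold changes that reversed were -0.046 for Slc25a18 (ependymal-like against qNSC-like cells), -0.071 for Slc38a1 (aNSC-like against qNSC-like cells). Without cluster 9, log2 fold changes that reversed were -0.40 for Slc6a11 (aNSC-like against qNSC-like cells), -0.18 for Slc38a1 (aNSC-like against qNSC-like cells). Without the 5% highest doublet scores, calls among the 8 were 6 (neuroblast-like against TAP-like cells), and log2 fold changes that reversed were -0.035 for Slc6a11 (aNSC-like against qNSC-like cells), 0.015 for Slc6a11 (pallial against subpallial aNSC-like cells), 0.0086 for Slc1a2 (pallial against subpallial astrocyte-like cells), 0.0087 for Slc1a3 (pallial against subpallial astrocyte-like cells), and counts of the 8 with age intervals apart from 0 were 2 higher at P22 than at P2 (oligodendroglial-like). With Emx1 against Gsx2 as the gate, calls over all genes were 898 (pallial against subpallial qNSC-like cells), and calls among the 8 were 1 (pallial against subpallial aNSC-like cells), and log2 fold changes that reversed were 0.22 for Slc6a11 (pallial against subpallial aNSC-like cells), 0.041 for Slc38a1 (pallial against subpallial TAP-like cells). With DESeq2, calls over all genes were 19 (pallial against subpallial astrocyte-like cells), 4 (the difference of differences). With cells of 2500 to 7500 genes, log2 fold changes that reversed were 0.0015 for Slc6a11 (pallial against subpallial aNSC-like cells).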
